A study of Mus musculus with 9 samples.

Results

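The genes described are the 7 fatty acid elongases, Elovl1 to Elovl7, and Pitx3, the gene that lies beside Elovl3 on mouse chromosome 19. They were taken by gene name and make up 8 of the 29386 gene identifiers in the deposited tables. RNA was sequenced in 9 libraries of 3 separate experiments on Setdb1, whose protein methylates histone H3 at lysine 9, a mark of silent chromatin. The first compared brown adipose tissue (BAT) of 2 control mice, Setdb1 fl/fl without Adipoq-Cre, with BAT of 2 Setdb1 AKO mice, Setdb1 fl/fl with Adipoq-Cre, a recombinase driven in adipocytes. The second compared primary brown adipocytes, Setdb1 flox/flox with Rosa26Cre-ERT2, treated with ethanol (ETOH, 1 library) or with 1 uM 4-hydroxytamoxifen (4-OHT, 1 library), which activates the Cre. The third compared brown adipocytes given a control siRNA (siNC, 1 library) with cells given siRNA against Setdb1 (siSetdb1, 2 libraries). All floxed groups, controls included, carry the floxed Setdb1 alleles, and no BAT group carries Adipoq-Cre with intact Setdb1, so an effect of the Cre and loss of Setdb1 cannot be told apart in BAT. The series also holds no 4-OHT-treated cells with intact Setdb1. Effects of 4-OHT, of the active Cre and of loss of Setdb1 therefore cannot be told apart in the second experiment. The BAT labels carry a prefix, TN_CE, that they do not explain. Ages and sex of the mice were not given, and neither was whether both siSetdb1 libraries received the same siRNA.

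Reads on genes numbered 15979479 to 16940622 in the BAT libraries, 29911734 in ETOH, 30176359 in 4-OHT, and 17593799 to 18468152 in the siRNA libraries. Setdb1 itself stood at 455.0 and 472.8 normalised counts in control BAT against 156.4 and 190.9 in Setdb1 AKO (log2 difference -1.42, limma, adjusted p = 0.0216), at 1070 counts in ETOH against 620 with 4-OHT, and at 783.5 normalised counts in siNC against 370.9 and 399.2 in siSetdb1 (-1.02, limma, adjusted p = 0.0526), lower in every treated library. All 5 adipocyte markers and all 5 brown adipocyte markers were found in all 9 libraries. The summed brown markers were 9893 to 11446 RPM (reads scaled to library size) in control BAT and 6920 to 10475 in Setdb1 AKO BAT, but 554 in ETOH and 723 in 4-OHT, where the summed fibroblast and preadipocyte markers reached 9015 and 8380. Of 12 marker lists, 8 had overlapping sums in control and Setdb1 AKO BAT. Of 40 markers tested there 1 was called, Pi16 of the fibroblast and preadipocyte list, whose sum overlapped (219.8 to 267.3 RPM in control, 258.3 to 382.8 in Setdb1 AKO). Pi16 rose from 49.9 ± 18.9 to 395.9 ± 235.3 normalised counts (SD, n = 2, limma, adjusted p = 0.0327). Dcn of the same list had means of 1401 and 2098 (log2 difference 0.58, limma, adjusted p = 0.111). Dpt stood at 0.43, Col1a1 at 0.17 and Pdgfra at 0.04. The brown markers ran from -1.09 for Dio2 (limma, adjusted p = 0.135) to 0.19 for Cox7a1. The erythroid sum was higher in Setdb1 AKO (733.4 to 737.9 RPM, against 503.7 to 541.4), as was that of skin epithelium and sebaceous gland (9.47 to 11.5, against 7.89 to 8.38), while the endothelial sum (464.7 to 485.2, against 500.3 to 526.7) and the lymphocyte sum (0.996 to 1.93, against 2.72 to 3.07) were lower. The keratinocyte markers Krt5 and Krt14 were not listed for any of the 9 libraries and entered the sums as 0. The part of these shifts in the results on the elongases was not tested. In bulk tissue, fewer cells of a type and less RNA per cell cannot be told apart.

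Elovl proteins catalyse the first and rate-limiting step of the cycle in the endoplasmic reticulum that lengthens fatty acids by condensing an acyl-CoA with malonyl-CoA. Each has its own substrates. Elovl6 turns palmitate into stearate, Elovl1, Elovl3 and Elovl7 act mainly on longer saturated and monounsaturated chains, Elovl2 and Elovl5 on polyunsaturated chains, and Elovl4 makes the very longest chains of skin and retina. Elovl3 is known in brown fat as a gene that cold exposure induces. Pitx3 encodes a homeodomain transcription factor known from the lens and from dopamine neurons of the midbrain.

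The active site of the enzymes holds a box of histidines, and the stretch around its codons was compared between each member and Elovl3. One such box was found in the coding sequence of each Elovl gene and none in Pitx3. The stretches, 45 bases each, are from GENCODE M21 transcripts (GRCm38), 5′ to 3′, with the 3 histidine codons in capitals, in order of identity to Elovl3.
Elovl3 (chr19:46134407-46134451, plus strand, exon 4): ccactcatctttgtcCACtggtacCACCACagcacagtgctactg
Elovl6 (chr3:129633092-129633136, plus strand, exon 5): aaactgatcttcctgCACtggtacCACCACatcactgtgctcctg
Elovl4 (chr9:83785075-83785119, minus strand, exon 4): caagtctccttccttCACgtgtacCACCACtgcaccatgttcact
Elovl5 (chr9:77976835-77976879, plus strand, exon 5): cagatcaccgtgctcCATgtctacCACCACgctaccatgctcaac
Elovl1 (chr4:118431439-118431483, plus strand, exon 6): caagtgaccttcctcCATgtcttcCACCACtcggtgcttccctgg
Elovl2 (chr13:41189986-41190030, minus strand, exon 5): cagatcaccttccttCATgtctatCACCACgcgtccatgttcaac
Elovl7 (chr13:108274316-108274360, plus strand, exon 6): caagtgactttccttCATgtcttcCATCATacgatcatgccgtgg
Counted base by base without gaps, Elovl6 matched Elovl3 at 36 of 45 bases (80.0%). Elovl4 matched at 28 (62.2%), Elovl5 at 25 (55.6%), Elovl1 and Elovl2 at 22 (48.9%) and Elovl7 at 21 (46.7%). The member closest to Elovl3 in this stretch, Elovl6, is on another chromosome. Of the 31-base words of the Elovl3 and Pitx3 transcripts 0.00% occurred in transcripts of another gene, 0.82% of those of Elovl1 and 0.78% of those of Elovl7. Elovl6 shared 6.52% of its words, mainly with the pseudogene Gm11295, which was looked up after its values were seen and had 0 reads in both control and 1 Setdb1 AKO BAT library and 2 reads in the other.

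Elovl3 (ENSMUSG00000038754, GRCm38 chromosome 19, 46131897 to 46135307, plus strand) showed the largest difference of the 5 members tested in BAT. It held 258.7 and 326.7 normalised counts (the read count scaled by 1 factor per library) in the control libraries and 5300.4 and 6003.6 in the Setdb1 AKO libraries. Both Setdb1 AKO libraries stood far above both controls. The group means were 292.7 ± 48.1 and 5652 ± 497.2 (SD, n = 2 mice each), a log2 difference of 4.27 (SE 0.17, 95% interval 3.87 to 4.68; limma, adjusted p = 1.05e-04), or 19.34-fold. Among the 14466 genes tested it ranked 23 from the highest change.

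Pitx3 (ENSMUSG00000025229, chromosome 19, 46135685 to 46148326, minus strand) also rose in BAT, from a level close to the limit of detection. The control libraries held 8 and 13 reads (7.3 and 13.2 normalised counts) and the Setdb1 AKO libraries 81 and 75 (83.3 and 77.4). The groups did not overlap, and Pitx3 passed the filter of 10 normalised counts in 2 libraries through its Setdb1 AKO values. The log2 difference was 2.90 (SE 0.42, 95% interval 1.92 to 3.89; limma, adjusted p = 0.0255), or 7.48-fold, and its rank was 91. The call was lost when any 1 library was left out, with a limma adjusted p of 0.169 and 0.107 on dropping control 1 or 2 and of 0.0906 and 0.0985 on dropping Setdb1 AKO 1 or 2, while the log2 difference stayed between 2.52 and 3.29.

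The other elongases with enough reads in BAT did not pass the test. Elovl6 (ENSMUSG00000041220, chromosome 3, 129532355 to 129638495, plus strand) held 8485.6 and 5145.9 normalised counts in the controls, then 8614.8 and 14884.7 in the knockouts. Control 1 and Setdb1 AKO 1 were nearly equal, and the spread within each group was large (log2 difference 0.78, SE 0.32, 95% interval 0.02 to 1.53; limma, adjusted p = 0.271). Elovl5 (ENSMUSG00000032349, chromosome 9, 77917364 to 77984519, plus strand) read 2815.1 and 2185.4 in control and 3875.2 and 3134.4 in Setdb1 AKO (log2 difference 0.49, SE 0.19, 95% interval 0.05 to 0.93; limma, adjusted p = 0.240). Elovl1 (ENSMUSG00000006390, chromosome 4, 118428093 to 118432953, plus strand) read 449.5 and 474.8 in control and 450.7 and 423.0 in Setdb1 AKO, with overlapping groups. Its log2 difference of -0.08 had a 95% interval from -0.46 to 0.30 (limma, adjusted p = 0.838), which leaves out a change as large as 2-fold either way.

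Elovl2, Elovl4 and Elovl7 were close to absent from BAT and did not enter the test. Elovl2 (ENSMUSG00000021364, chromosome 13, 41182381 to 41220405, minus strand) had 10 and 7 reads in control and 2 and 13 in Setdb1 AKO. Elovl4 (ENSMUSG00000032262, chromosome 9, 83778692 to 83806277, minus strand) had 1 and 8 reads in control and 3 in each Setdb1 AKO library. Elovl7 (ENSMUSG00000021696, chromosome 13, 108214404 to 108285683, plus strand) had 8 and 10 reads in control and 3 in each Setdb1 AKO library. Of these, only Elovl7 had both Setdb1 AKO libraries below both controls, an arrangement found in 24.9% of all genes tested. Of the 8 genes, 5 were therefore tested in BAT, 2 were called higher and 0 lower, where 1.00% of all genes tested were called higher and 0.677% lower. All Setdb1 AKO libraries stood above all controls for 4 of the 5 (Elovl3, Elovl5, Elovl6 and Pitx3), an arrangement found in 25.1% of all genes tested. Pitx3, among these 4, passed the filter only with its Setdb1 AKO values. Elovl6, also among these 4, was separated only by a narrow gap in normalised counts (8485.6 in control 1, 8614.8 in Setdb1 AKO 1). Scaled to gene length and library total instead, Elovl6 stood at 84.9 in control 1 and 78.5 in Setdb1 AKO 1, so its groups overlapped.

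**Figure D1:**
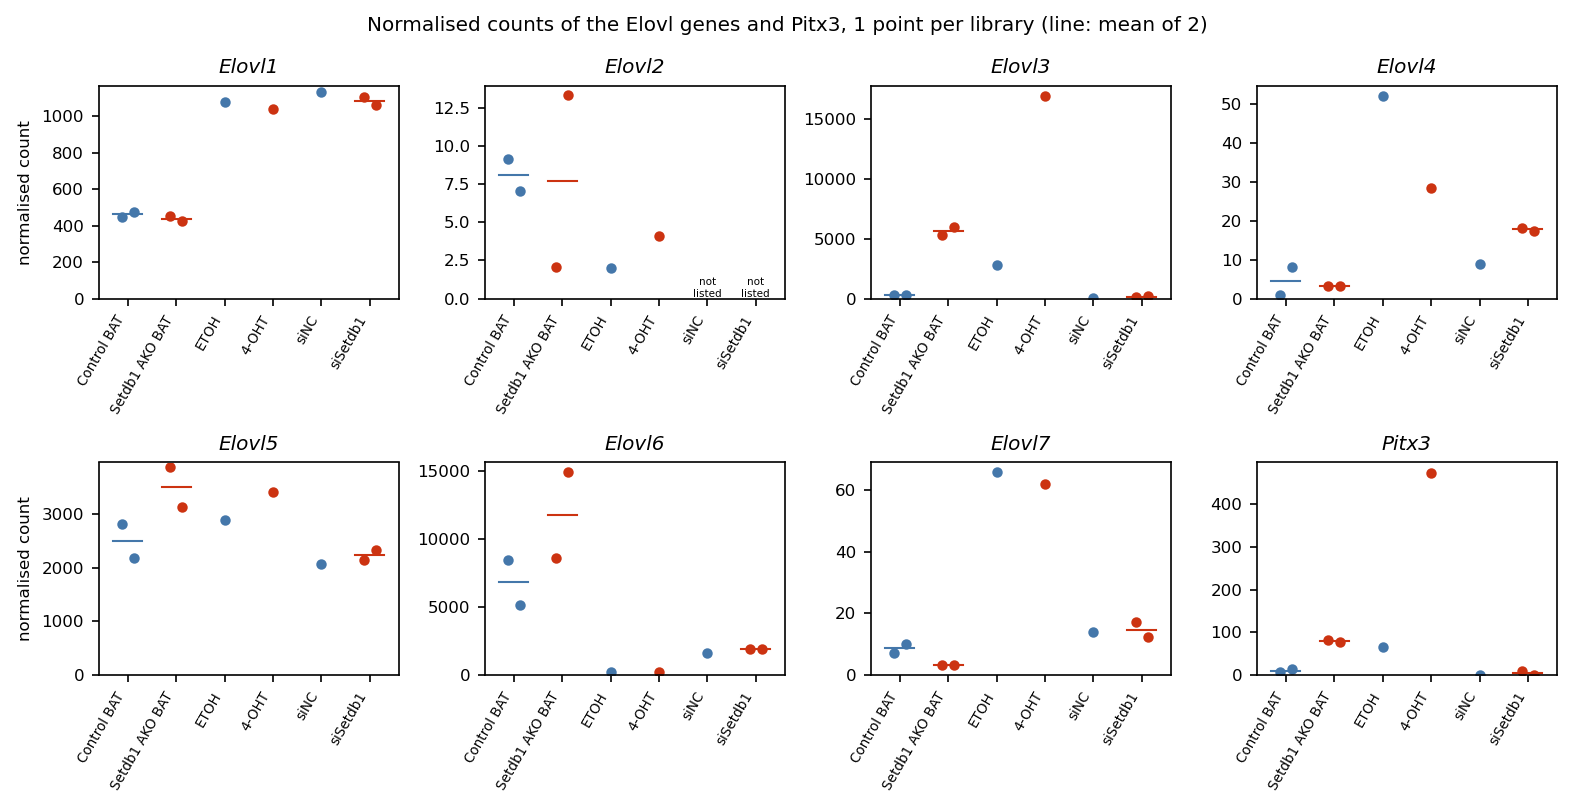
Normalised counts (vertical axis, linear, from 0) of each Elovl gene and Pitx3 in the 9 libraries, 1 panel per gene; blue points are controls, red points are libraries with Setdb1 deleted or knocked down, and lines are means of 2 libraries. Elovl3 stands at 5300.4 and 6003.6 in Setdb1 AKO BAT against 258.7 and 326.7 in control BAT, and Pitx3 follows the same order of groups in BAT and in the 4-OHT experiment; the Pitx3 point at 0 for siSetdb1 2 is a gene not listed there.

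In the 4-OHT experiment the same pair of genes stood apart. Elovl3 went from 2872 counts with ethanol to 16633 with 4-OHT, 6.01-fold or 2.59 on the log2 scale (95% counting interval 5.77 to 6.25). Pitx3 went from 68 counts to 466, 6.93-fold (5.50 to 9.31) or 2.79 on the log2 scale. With 1 library a group there is no replicate check, and the intervals cover counting error only. Of the 7 elongases and Pitx3, 7 reached the 50 counts asked for, and 2 were at least 2-fold higher, where 1.28% of all 13969 genes were, and 0 were 2-fold lower, where 1.65% were. Pitx3 ranked 17 and Elovl3 21 from the highest ratio.

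The remaining elongases with 50 counts stayed within 2-fold in these cells. Elovl5 had 2947 counts in ETOH and 3362 in 4-OHT (1.18-fold, 1.13 to 1.24), Elovl1 1098 and 1019 (0.96-fold, 0.883 to 1.05), and Elovl6 211 and 202 (0.99-fold, 0.815 to 1.21). Elovl7 had 67 and 61 counts (0.95-fold, 0.657 to 1.36). Elovl4 was the member with the lowest ratio, 53 counts in ETOH and 28 in 4-OHT (0.56-fold, 0.334 to 0.882). Elovl2 had 2 and 4 counts and was not compared.

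In the siRNA experiment Elovl3 started from a much lower level. Normalised counts were 35.5 in siNC, 97.3 in siSetdb1 1 and 207.7 in siSetdb1 2. Both siSetdb1 libraries were above siNC, and in counts they differed from each other by more than siSetdb1 1 differed from siNC. The log2 difference was 1.97 (SE 0.40, 95% interval 1.10 to 2.84), rank 62 of 15224 genes, and was not called (limma, adjusted p = 0.232). Over its 7 alternatives the adjusted p ran from 6.36e-05 to 0.734, and 3 of them called it. With siSetdb1 2 alone the value was 2.51 and with siSetdb1 1 alone 1.43, with no test.

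Pitx3 was barely read in the siRNA cells. It had 0 reads in siNC, 9 reads in siSetdb1 1 and no entry for siSetdb1 2, where a listed gene has at least 2 reads over a table's libraries. The 9 reads were at least 3.08-fold higher than a floor of 3 reads in siNC. Elovl6 stood at 1589.7 normalised counts in siNC, 1881.9 in siSetdb1 1 and 1891.0 in siSetdb1 2 (log2 difference 0.25; limma, adjusted p = 0.941). Elovl5 read 2063.4, then 2146.3 and 2330.9, and Elovl1 1129.9, then 1105.6 and 1062.1 (log2 differences 0.12 and -0.06; limma, adjusted p = 0.952 and 0.968). Elovl4 read 8.9, then 18.2 and 17.3, and Elovl7 13.8, then 17.2 and 12.2 (log2 differences 0.93 and 0.07; limma, adjusted p = 0.941 and 0.990), while Elovl2 was not listed. Of the 8 genes 6 were tested and 0 were called (limma), where 0.0328% of all genes were called higher and 0.00657% lower. Without adjustment p was below 0.05 for Elovl3 alone of the 6 (3.96e-04), edgeR called 1 of them, Elovl3 (adjusted p = 0.00238), and DESeq2 called 0. All siSetdb1 libraries were above siNC for 4 of the 6, an order found in 34.1% of all genes tested. Elovl4, among these 4, passed the filter of 10 normalised counts only through its siSetdb1 values.

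**Figure D2:**
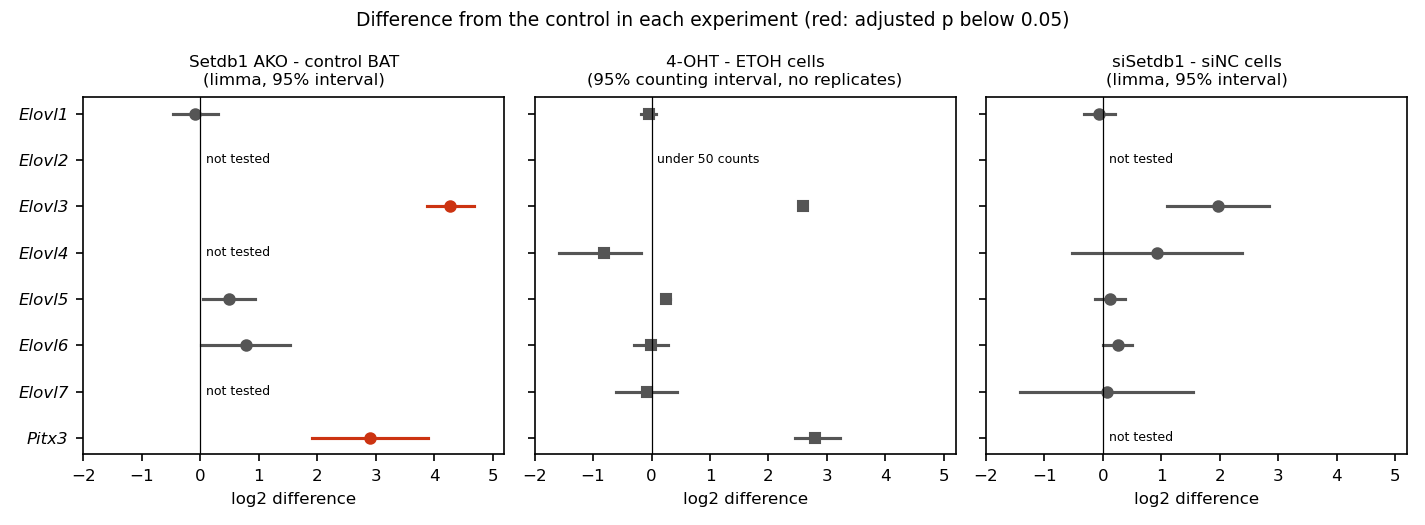
Difference from the control (horizontal axis, log2) for each gene in BAT, in 4-OHT cells and in siSetdb1 cells; bars are 95% intervals from limma in the outer panels and counting intervals in the middle one, and red marks an adjusted p below 0.05. Elovl3 lies at 4.27, 2.59 and 1.97 and Pitx3 at 2.90 and 2.79, while the intervals of Elovl1 cross 0 in all 3 experiments.

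Levels were compared between genes as RPKM (reads per kilobase of the deposited gene length, scaled to the reads of the library). In control BAT, Elovl6 led with 84.9 and 49.4, followed by Elovl5 with 51.4 and 38.3. These neighbours overlapped. Elovl3 stood at 11.1 and 13.5 and Elovl1 at 10.6 and 10.7, next to each other. Elovl2, Elovl4 and Elovl7 were all at or under 0.165, and Pitx3 was at 0.309 and 0.533. In Setdb1 AKO BAT, Elovl3 led with 208.0 and 242.6, above Elovl6 at 78.5 and 139.7 and Elovl5 at 64.5 and 53.7. Elovl1 stood at 9.69 and 9.37 there and Pitx3 at 3.20 and 3.06.

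The cell cultures began from other orders. Elovl3 already led in ETOH at 64.3, ahead of Elovl5 at 28.0, Elovl1 at 13.5, Pitx3 at 1.49 and Elovl6 at 1.10. In 4-OHT it stood at 368.9, Elovl5 at 31.6, Elovl1 at 12.4 and Pitx3 at 10.1. In siNC the order was Elovl5 at 32.1, Elovl1 at 22.7, Elovl6 at 13.6 and Elovl3 at 1.30. Elovl6, which led in control BAT, came after Elovl3, Elovl5 and Elovl1 in ETOH and in 4-OHT, above Elovl4, Elovl7 and Elovl2. The experiments were scaled separately and share no library, so these levels are set side by side without a test.

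Elovl3 came to make up most of the elongase RNA where it was high. Its share of the summed level of the 7 elongases was 7.03% and 12.0% in control BAT and 57.6% and 54.4% in Setdb1 AKO BAT. It was 59.5% in ETOH and 88.9% in 4-OHT, and 1.86% in siNC against 4.71% and 9.31% in siSetdb1. The share of Elovl6 was 53.6% and 44.0% in control BAT and 21.8% and 31.3% in Setdb1 AKO BAT. The summed level was 158.4 and 112.3 in control BAT and 360.9 and 445.7 in Setdb1 AKO BAT. Without Elovl3 it was 147.2 and 98.8 in control and 152.8 and 203.1 in Setdb1 AKO, where Setdb1 AKO 1 lay close to control 1. In the cells the sum without Elovl3 was 43.8 in ETOH and 45.9 in 4-OHT, and 68.7 in siNC against 73.4 and 75.5 in siSetdb1.

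**Figure D3:**
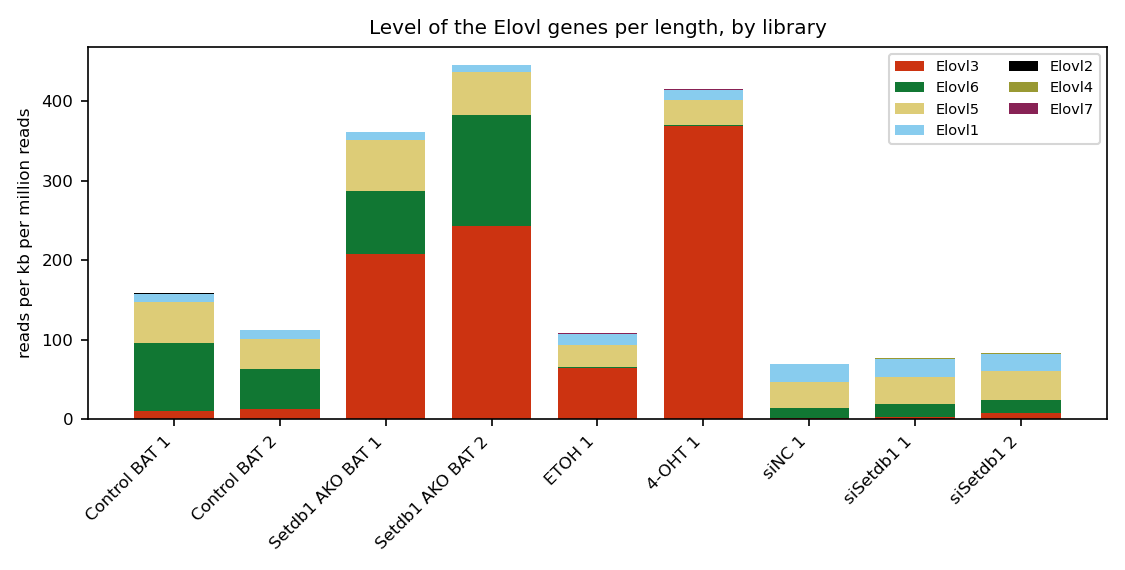
Level of each Elovl gene (RPKM, stacked) in each of the 9 libraries. The red Elovl3 segment takes 57.6% and 54.4% of the bar in Setdb1 AKO BAT and 88.9% in 4-OHT, and Elovl6 and Elovl5 make up most of the bar in control BAT.

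Elovl3 and Pitx3 face each other, with their 3′ ends 377 bases apart in the deposited coordinates. In GENCODE M21 a longer Elovl3 transcript ends at 46135694 and overlaps the end of Pitx3 by 10 bases. The strand setting of the counting was not given in the sources used here, so reads of the shared stretch cannot be told apart. Reads that run past the end of Elovl3 into Pitx3 likewise cannot be told from reads of Pitx3 itself. Their part in the Pitx3 counts was not tested. Elovl3 gave 35.2 reads per Pitx3 read in control 1 (95% counting interval 17.6 to 82.4) and 24.8 in control 2 (14.3 to 47.0). The ratio was 63.6 in Setdb1 AKO 1 (51.1 to 80.2) and 77.6 in Setdb1 AKO 2 (61.8 to 98.8). It was 42.2 in ETOH (33.2 to 54.5) and 35.7 in 4-OHT (32.6 to 39.2), and 10.7 in siSetdb1 1 (5.4 to 24.0). The ratios of both Setdb1 AKO libraries were above those of both controls. The interval of control 2 lay below both Setdb1 AKO intervals, but the wide interval of control 1 holds both Setdb1 AKO ratios. The intervals of ETOH and 4-OHT overlapped.

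A promoter entry in RefSeq (GRCm38.p6) exists for 7 of the 8 genes, not Elovl3. That of Pitx3 is shown because Pitx3 moved with its neighbour, in the 249 bases up to the gene start (chr19:46148327-46148575, minus strand), with matches to the GC box GGGCGG in capitals.
Pitx3: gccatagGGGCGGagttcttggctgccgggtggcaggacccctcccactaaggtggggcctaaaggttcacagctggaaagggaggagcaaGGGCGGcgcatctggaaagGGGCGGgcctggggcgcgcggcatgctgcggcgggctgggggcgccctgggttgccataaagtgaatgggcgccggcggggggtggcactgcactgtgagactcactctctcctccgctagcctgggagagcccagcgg
The stretch held 3 GC boxes, and 2 more lay within the 50 bases after the start. Both strands were searched, and no match overlapped another. A GC box was found in 35.7% of all 32851 promoters of 300 bases. The Pitx3 entry had 20 CpG and 71.7% GC, against medians of 7 and 52.7% over all promoters, and 73.5% of promoters had fewer CpG. Entries of the other members ran from 6 CpG (Elovl1, second entry) to 56 (Elovl2, first entry). Elovl5 and the first entry of Elovl1 had 20 as well. No match to TATAAA, found in 13.6% of promoters, was in the Pitx3 window.

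No other gene around the pair passed the test. The tables list 20 genes within 250 kb of Elovl3. Of the 18 other than Elovl3 and Pitx3, 13 were tested in BAT and 0 were called (limma), with log2 differences from -1.76 to 0.21 and a median of -0.14. The lowest, Gm26792, averaged 16.2 normalised counts in the controls and 4.64 in the knockouts (limma, adjusted p = 0.258). Gbf1, which lies just beyond Pitx3 and encodes an exchange factor of the Golgi, had a log2 difference of -0.14 (SE 0.20), and Nolc1, a nucleolar protein gene on the other side of Elovl3, of -0.38 (SE 0.14; limma, adjusted p = 0.232). Nfkb2, a subunit gene of NF-kappa-B, stood at 0.12 (SE 0.28). By limma p without adjustment, 2 of the 13 were below 0.05, Nolc1 (0.0316) and Gm26792 (0.0406), both toward lower, and edgeR and DESeq2 called 0. Over all genes tested in BAT, 17.7% had such a p, edgeR called 1.73% and DESeq2 4.50%, and limma called 1.00% higher and 0.677% lower.

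In the cells the same neighbours stayed within 2-fold. Of the 13 with at least 50 counts in the 4-OHT experiment, 0 passed 2-fold. Of all 13969 genes, 1.28% were at least 2-fold higher and 1.65% at least 2-fold lower. Log2 ratios of the 13 ran from -0.73 for Psd (618 counts in ETOH and 359 in 4-OHT) to 0.51 for Hps6 (264 and 362). In the siRNA experiment 14 were tested and 0 were called by limma, which called 0.0328% of all genes higher and 0.00657% lower. Log2 differences of the 14 ran from -0.61 to 0.17. The lowest was Hps6, the 1 gene of them with a limma p below 0.05 before adjustment (0.0157), as 5.06% of all genes tested had; edgeR and DESeq2 called 0.

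**Figure D4:**
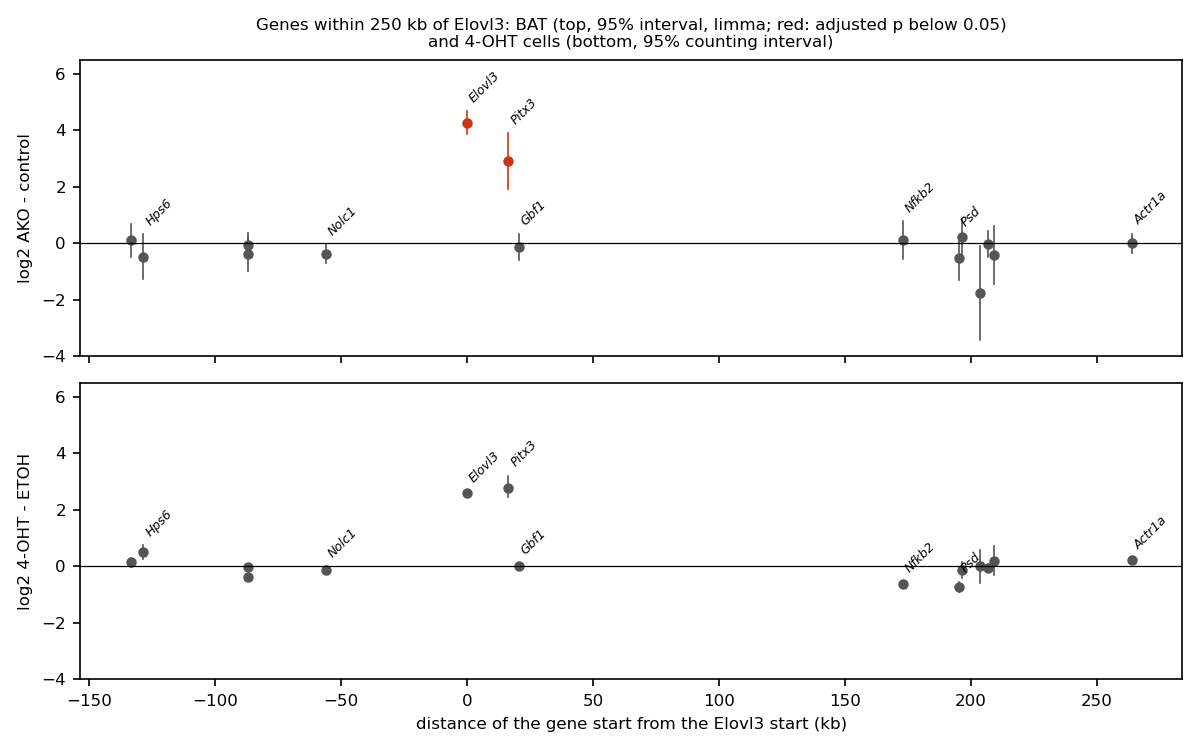
Log2 difference (vertical axis) of the tested genes within 250 kb of Elovl3 against the distance of their start from the Elovl3 start (horizontal axis, kb), in BAT (top) and in the 4-OHT experiment (bottom); bars are 95% intervals and red marks an adjusted p below 0.05. Elovl3 and Pitx3 lie at 4.27 and 2.90 in BAT and at 2.59 and 2.79 in 4-OHT, and the other genes lie between -1.76 and 0.51.

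The nearest tested genes on either side of the other elongases were examined the same way. Of the 12, 0 were called in BAT by limma (4 at an unadjusted p below 0.05), 0 by edgeR and 1, Pde4d, by DESeq2, where 17.7%, 1.73% and 4.50% of all genes reached these marks. Log2 differences ran from -0.78 to 3.17. The high values were of genes with few reads, which passed the filter through their Setdb1 AKO libraries. Mak, left of Elovl2, had 0 and 4 reads in control and 15 and 19 in Setdb1 AKO (limma, adjusted p = 0.155), and Gm5712, left of Elovl6, 0 and 1 against 13 and 10 (adjusted p = 0.122, limma). Egf, right of Elovl6, had 9 and 2 against 20 and 12 (limma, adjusted p = 0.296). The genes beside Elovl1, Elovl4, Elovl5 and Elovl7 lay between -0.78 for Pde4d and 0.57 for Bckdhb.

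Tested genes that overlap an elongase numbered 2, Cdc20 and Gm35986; they lay outside the rule for named genes and were chosen after their values were seen. Cdc20, a cell cycle gene that shares 53 bases with Elovl1, had 22 reads in each control and 12 and 9 in Setdb1 AKO (log2 difference -0.92; limma, adjusted p = 0.372). Gm35986 (ENSMUSG00000105837, chromosome 3, 129527467 to 129532388) is an antisense RNA that overlaps the first 34 bases of Elovl6. It held 49.5 and 20.3 normalised counts in control BAT and 160.5 and 180.6 in Setdb1 AKO. The groups did not overlap, and the log2 difference was 2.38 (SE 0.42; limma, adjusted p = 0.0463). The call was lost without any 1 library (limma, adjusted p of Gm35986 from 0.0876 to 0.207) and with no filter on low values (0.264). In the siRNA experiment Gm35986 had 4 reads in siNC and 1 and 4 in siSetdb1, and the 4-OHT table does not list it. Without the strand setting, reads of the shared stretch cannot be told apart between Gm35986 and Elovl6. The bases of the RefSeq promoter before the deposited start of Elovl6, which Gm35986 runs across from the opposite strand (GRCm38.p6, chr3:129532136-129532354, plus strand), are shown for that reason, with a match to the nuclear receptor half-site AGGTCA, here on the other strand, in capitals.
Elovl6: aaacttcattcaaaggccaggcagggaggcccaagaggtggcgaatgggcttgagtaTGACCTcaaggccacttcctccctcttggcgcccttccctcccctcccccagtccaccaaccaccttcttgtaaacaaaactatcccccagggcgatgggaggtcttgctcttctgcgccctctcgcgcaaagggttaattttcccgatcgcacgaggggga
The half-site was found in 16.3% of all promoters of 300 bases. No GC box was in this window, and the entry had 14 CpG and 55.7% GC.

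Of the enzymes that complete the elongation cycle, of which 7 were listed, 6 were tested and 0 were called by limma (3 at an unadjusted p below 0.05), 0 by edgeR and 2, Hacd1 and Hacd2, by DESeq2. The shares over all genes tested, which also apply to the lists that follow, were 17.7% at that p, 1.73% by edgeR and 4.50% by DESeq2. Their median log2 difference was 0.37 beside 0.01 over all genes tested. Hsd17b12, the ketoacyl reductase of the cycle, read 4126.8 and 3849.3 normalised counts in the controls, then 5346.7 and 5610.5 in the knockouts (log2 difference 0.46; limma, adjusted p = 0.179). The dehydratase genes Hacd1 and Hacd2 pointed opposite ways. Hacd1 read 192.6 and 210.0 against 103.9 and 93.9 (-1.02; limma, adjusted p = 0.0742), and Hacd2 2199.6 and 1726.8 against 3607.7 and 3210.7 (0.80; limma, adjusted p = 0.0752). Tecr, the enoyl reductase, stood at 0.28.

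The substrates of the cycle come from fatty acid synthesis and activation. Of 8 genes for malonyl-CoA and palmitate supply, all were tested in BAT and 0 were called by limma (3 at an unadjusted p below 0.05), 0 by edgeR and 1, Slc25a1, by DESeq2, with a median log2 difference of 0.79. Me1, malic enzyme, read 9513.0 and 4720.8 in control and 12993.2 and 23981.4 in Setdb1 AKO (1.40; limma, adjusted p = 0.134), Acss2, an acetyl-CoA synthetase, was at 1.19, Acly, ATP citrate lyase, at 1.01 and the citrate carrier Slc25a1 at 0.97. Setdb1 AKO 2 held the highest value of 7 of the 8, as it did for Elovl6. By normalised counts, Me1, Acss2 and Slc25a1 followed Elovl6 in the order of all 4 BAT libraries. That order depends on the scaling, since Elovl6 was nearly equal in control 1 and Setdb1 AKO 1 (8485.6 and 8614.8). By RPKM, Elovl6 had Setdb1 AKO 1 (78.5) below control 1 (84.9), an order shared with Acly and not with Me1, Acss2 or Slc25a1. Of 8 desaturases, 6 were tested and 0 were called by limma (2 at an unadjusted p below 0.05), 0 by edgeR and 1, Scd2, by DESeq2, with a median of 0.30. Scd2 read 3005.9 and 2435.0 against 4349.6 and 8414.7 (1.16; limma, adjusted p = 0.113), Scd3 was at 1.36, Fads2 at 0.43 and Fads1 at 0.17.

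Fatty acid activation was a list with calls both ways. Of 9 genes, 8 were tested, 2 rose and 1 fell, with a median of 0.12, where 1.00% of all genes tested rose and 0.677% fell (limma). DESeq2 called the same 3, and edgeR 2 of them, without Acsl5. Slc27a1, a fatty acid transport protein with acyl-CoA synthetase activity, rose from 4129.5 and 3173.6 to 7470.6 and 7660.6 (log2 difference 1.06; limma, adjusted p = 0.0388). Acsl5 rose from 3448.0 and 3073.2 to 6043.3 and 5632.2 (0.84; limma, adjusted p = 0.0496), while Acsl3 fell from 952.1 and 1149.5 to 537.1 and 468.4 (-1.06; limma, adjusted p = 0.0353). Acsl5 and Acsl3 are both long chain acyl-CoA synthetases, and Acsl4, another, stood at 0.39. Each of these 3 calls was lost when any 1 BAT library was left out, with limma adjusted p of Slc27a1 from 0.0585 to 0.367, of Acsl5 from 0.0678 to 0.416 and of Acsl3 from 0.0512 to 0.310.

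Peroxisomes shorten the very long chains that elongation makes. Of 7 genes of that route, all were tested, 2 rose and 0 fell (limma), with a median of 0.32, beside 1.00% and 0.677% of all genes tested, and edgeR and DESeq2 called the same 2. Acaa1b, a peroxisomal thiolase, rose from 556.8 and 472.8 to 1756.5 and 1931.4 normalised counts (log2 difference 1.84; limma, adjusted p = 0.00337), and Abcd2, a transporter of very long chain acyl-CoA, from 575.1 and 440.3 to 1142.2 and 1359.8 (1.31; limma, adjusted p = 0.0253). Acaa1b and Acaa1a are near-identical copies, so the division of reads between them is uncertain; Acaa1a stood at 0.31 and Hsd17b4 at 0.50. Acaa1b was no longer called without control 1 (limma, adjusted p = 0.0827) or control 2 (0.0991). Abcd2 was called without Setdb1 AKO 1 (limma, adjusted p = 0.0420) but not without any other library (0.0794 to 0.247).

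Ceramide synthases, which take up very long chain acyl-CoA, and the regulators of lipid synthesis showed 0 calls in BAT by limma and by edgeR, with 4 of 6 and 17 of 17 tested and medians of 0.10 and -0.02. At an unadjusted p below 0.05 there were 0 and 2, and DESeq2 called 0 and 2, with Srebf1 among the latter. Cers5 stood at -0.24, Cers6 at 0.37, Cers2 at 0.09 and Cers4 at 0.11. Among the regulators, Srebf1, the master factor of fatty acid synthesis, read 3070.1 and 2469.5 against 4953.6 and 4475.6 (log2 difference 0.77; limma, adjusted p = 0.0772). The coactivator gene Ppargc1b stood at 0.32 and Nr1d1, a repressor of the circadian clock, at -0.76. Of the other Pitx genes, none had enough reads in BAT to be tested.

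The lists were read in the cells too. In the siRNA experiment 0 genes of any of the 7 lists were called by limma, edgeR or DESeq2 (6 of 56 at an unadjusted limma p below 0.05, and 5.06% of all genes), where these tools called 6, 37 and 11 of all 15224 genes, and the medians lay between -0.16 and 0.02. In the 4-OHT experiment, without replicates, 3 of the 54 list genes with 50 counts were at least 2-fold higher and 0 were 2-fold lower, where 1.28% and 1.65% of all genes were. They were Acaa1b (2927 counts in ETOH and 6319 in 4-OHT, log2 ratio 1.16), Slc27a1 (3866 and 7760, 1.06) and Scd2 (35391 and 70168, 1.04). The medians of the lists lay between 0.08 and 0.52 there, beside 0.01 over all genes. The summed adipocyte markers were 6026 RPM in ETOH and 7315 in 4-OHT, and the summed macrophage markers 525.2 and 333.3; their part in the list values was not tested.

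**Figure D5:**
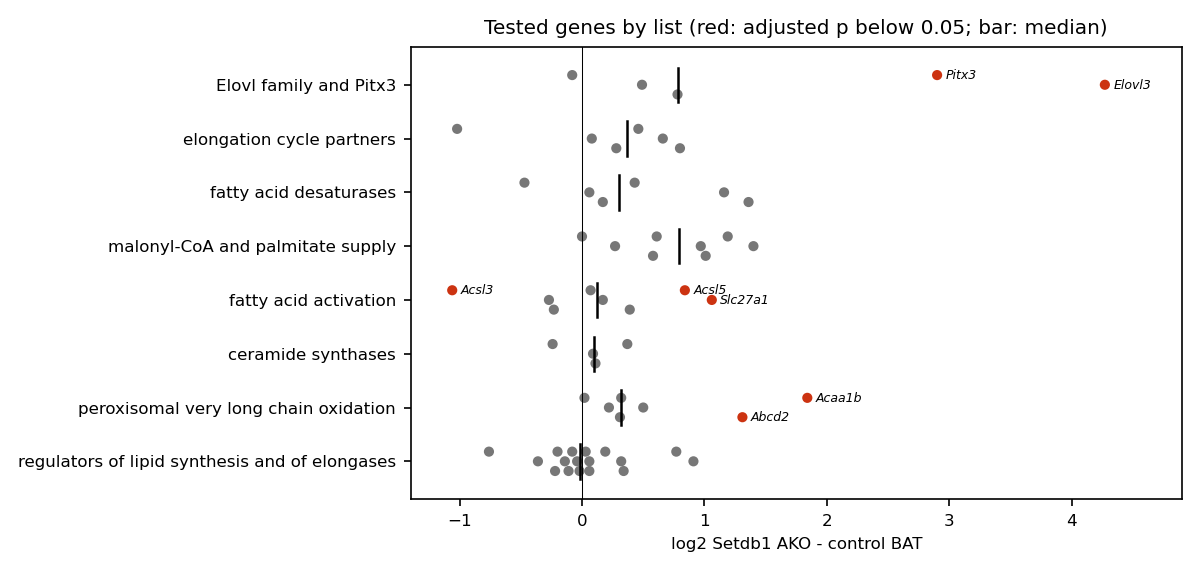
Log2 difference between Setdb1 AKO and control BAT (horizontal axis) of every tested gene of the Elovl family with Pitx3 and of each pathway list; bars mark medians and red marks an adjusted p below 0.05. Elovl3 at 4.27 and Pitx3 at 2.90 lie beyond every gene of the other lists, whose largest difference is 1.84 for Acaa1b.

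The genes whose changes were most like those of Elovl3 were sought by the root mean square of the differences between their log2 changes over the 9 libraries, each set against the controls of its own experiment, among 12215 genes. ETOH and siNC, alone in their groups, are 0 by construction. Sycp3, a gene of the synaptonemal complex of meiosis, came first with a distance of 0.54, and had log2 changes of 4.33 in BAT, 2.26 in 4-OHT and 0.84 in siSetdb1. Resf1 followed with 0.61 (3.40, 2.16 and 1.22), then Lrrc8b, a subunit of volume-regulated anion channels, with 0.66 (3.71, 1.33 and 1.13). Tnfrsf23 and Tnfrsf22, decoy receptors of chromosome 7, came next with 0.71 and 0.72. For Pitx3 the nearest were Resf1 at 0.91, St6galnac5 at 1.00, Rnf17 at 1.04, Rps4l at 1.09 and 3222401L13Rik at 1.10. Elovl3 came 16th for Pitx3, at 1.24. In the siRNA cells the changes of Pitx3 rest on few or no reads, 0 in siNC, 9 in siSetdb1 1 and 0 in siSetdb1 2. The distances from Pitx3 include these values. Pitx3, Elovl2, Elovl4 and Elovl7 did not pass the filters of all experiments, so they were not among the 12215 genes compared. No other elongase was among the 5 nearest genes of Elovl3 or of Pitx3.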

How the data were processed

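RNA-seq of 9 mouse libraries was analysed (oligo(dT), NEBNext Ultra II, NovaSeq, per the labels' protocols). Per the submitters' processing notes, the tools included STAR 2.7.10a, Trimmomatic 0.39, DESeq2 1.36.0 and featureCounts 2.0.3, on GRCm38. The annotation release, strand setting and treatment of multimapping reads are not given in the sources used here. The deposited signal per gene is a read count scaled by the authors with 1 factor per library; the deposited 4-OHT table also gives the raw count, per the file headers. Whole reads were recovered, within 0.05 reads for at least 99.9925% of values. The siRNA tables share siNC, with the same reads in all 19381 shared genes, and were joined through it (factor 1.0024); genes missing from 1 of them were counted as 0 there.

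limma 3.58.1 (lmFit, eBayes with trend, R 4.3.3) was run on log2(normalised count + 1), which understates changes of low genes, for genes with at least 10 in 2 BAT libraries or 1 siRNA library. Benjamini-Hochberg adjustment covered all genes tested, and calls were made below 0.05. The lone siNC library was assumed to vary like siSetdb1. In 4-OHT, ratios of TMM-scaled CPM (edgeR 4.0.16, prior count 2, at least 50 counts) were described with exact 95% counting intervals. Where the labels do not name separate cultures, p-values measure the spread between these libraries. Steps were tested on simulated data. Alternatives were other pseudocounts, filters, TMM, edgeR, DESeq2 1.42.0, a replicate block and leaving out libraries.

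Members and lists were chosen with earlier results of these data known. Named genes were the members, Setdb1, tested genes within 250 kb of Elovl3, the nearest tested genes of the other members, up to 4 genes of each list with the smallest BAT p, and the 5 most alike genes of Elovl3 and Pitx3. One gene that this rule names is not reported here.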

Additional observations from a re-analysis of the deposited data

How the results depend on the processing

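Elovl3 in BAT was called in all 12 alternatives (log2 difference 4.11 to 4.44, adjusted p from 1.43e-83 to 0.0298; limma, edgeR or DESeq2). Pitx3 was called in 7 of 12 (2.51 to 3.29, adjusted p from 4.97e-05 to 0.221), and Elovl1, Elovl5 and Elovl6 in 0 of 12. In BAT 2 of the 8 genes were called, and 1 with no filter on low values and when any 1 library was left out; the genes called within 250 kb of Elovl3 likewise went from 2 to 1. In siSetdb1 0 were called, and 1 with a filter of at least 50, with TMM scaling and with edgeR. Elovl3 by library total gave 2.52 in 4-OHT, against 2.59 with TMM.

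Over all genes, 145 higher and 98 lower were called in BAT, 11 and 0 with no filter (where the adjustment covers 22721 genes), and 364 and 287 with DESeq2. With no filter the unadjusted limma p in BAT rose too, for Elovl3 from 2.89e-08 to 8.18e-06 and for Pitx3 from 1.97e-04 to 0.00140. Those of Elovl5 and Elovl6 rose as well, and that of Elovl1 did not. Leaving out 1 library gave 22 to 98 higher and 0 to 59 lower, with fewer samples. In siSetdb1, 5 and 1 were called. These became 0 and 0 with no filter (1352 genes with unadjusted p below 0.05), 22 and 7 with a filter of at least 50, 53 and 12 with TMM, 29 and 8 with edgeR, 8 and 3 with DESeq2, and 2 lower with a pseudocount of 5. The cause of these differences in the counts was not tested.

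The labels do not say whether the BAT replicate numbers pair samples. The differences between replicates 1 and 2 correlated at -0.02 between the groups over 14466 genes. Such a value shows no shared shift across genes but cannot exclude a pairing that affects few of them. With the replicate block, 181 genes were higher and 118 lower, and Elovl3 and Pitx3 were called. No paired analysis was possible in the siRNA and 4-OHT experiments because a control of 1 library shares fewer than 2 numbers with the treated group. Depth limits Elovl2, Elovl4, Elovl7 and, in siRNA cells, Pitx3.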
